A study of Homo sapiens with 10 samples.

Results

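Transcripts of the 9 genes BCAT1, BCAT2, BCKDHA, BCKDHB, DBT, BCKDK, IVD, MCCC1 and MCCC2, which encode enzymes of branched-chain amino acid breakdown, were followed by RNA sequencing in A549, a long-established cell line from a human lung adenocarcinoma. The 9 genes are 9 of the 33551 rows of the count table. BCAT1 was chosen by its level in the E292V line against the WT line in these same libraries, so that contrast is given as a description and not tested. The other 8 genes were added because they encode the second transaminase and the enzymes that follow. There were 5 A549 lines, labelled by their ABCA3 genotype as WT, KO, L101P, E292V and E690K, and ABCA3 encodes a lipid transporter of lamellar bodies. Every line was sequenced untreated and after overnight exposure to VSVG LV-ABCA3:GFP, a lentivirus that delivers an ABCA3-GFP fusion, used at a multiplicity of infection of 20. All groups shared the A549 background and the culture conditions. Each line and treatment had 1 library, and each genotype was 1 line, so a difference between genotypes cannot be told apart from a difference between lines.

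Branched-chain amino acid transaminases move the amino group of leucine, isoleucine and valine to 2-oxoglutarate, which yields glutamate and branched-chain keto acids. BCAT1 is the cytosolic form, low in most adult tissues and raised in several cancers, and BCAT2 is the mitochondrial form. The branched-chain keto acid dehydrogenase complex then commits the keto acids to oxidation in mitochondria, and for leucine the next steps are taken by isovaleryl-CoA dehydrogenase (IVD) and methylcrotonyl-CoA carboxylase (MCCC1 and MCCC2).

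Total counts ranged from 59430095 to 96811421 per library. Summed over 10 markers of epithelium and of A549, the level was 16791 to 24900 CPM, the count scaled to a common library total. Among them the keratin KRT8 was at 3721 to 7719 CPM, while EPCAM was at only 7.73 to 22.2 CPM. Of 8 alveolar type 2 markers, 7 stayed under 1 CPM in the 10 libraries, SFTPC among them. The labels of the KO pair went against the data. ABCA3 stood at 601 CPM in the library labelled KO untreated and at 25.8 CPM in the library labelled KO transduced, and the EGFP row stood at 37.9 and 0.0492 CPM in the same order. These 2 are therefore called the libraries labelled KO. EGFP was also counted in the untreated libraries of the other lines, at 1.01 to 70.9 CPM, against 18.0 to 153 CPM in their transduced libraries. It hardly differed in E690K, at 16.3 CPM untreated and 18.0 CPM transduced. Untreated WT, at 70.9 CPM, was above transduced L101P (35.9 CPM), E292V (66.8 CPM) and E690K. In the untreated libraries of the other lines ABCA3 was at 362 CPM in WT and between 890 and 1156 CPM in the 3 missense lines.

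GENCODE release 29 (GRCh38) places BCAT1 (ENSG00000060982.14) on chromosome 12, minus strand, between 24810022 and 24949459. Strand use in counting is not stated, and antisense genes on the other strand share 0.696% to 1.77% of its exon bases; those with a row held at most 6 counts in a library. The promoter sequences held 2 short motifs that are shown here because BCAT1 and the amino acid synthesis gene ASNS, described further on, differed between the lines. TGATGNAA is a form of the amino acid response element known to bind ATF4, and CACGTG is the E-box known to bind MYC and related factors. Both were searched on both strands in RefSeq windows (GRCh38.p14) from 250 bases before to 50 bases after each annotated start. The motifs were chosen after the expression values were known, and a match in these letters is not a measurement of binding. Windows existed for 8 of the 9 genes, CACGTG was found in 3 of them and TGATGNAA in 1. A gene can have several windows, and BCAT1 had 5 and MCCC1 had 3. Over all 27305 genes, 8.77% held CACGTG in at least 1 window and 4.46% held TGATGNAA, and over all 35116 windows the shares were 7.26% and 3.62%. Other genes were searched for comparison. PHGDH and PSAT1, also described further on, had 1 window each, which held neither motif. ASNS and GARS1 each held TGATGNAA in 1 of 2 windows and no CACGTG. GARS1 is the RefSeq name of GARS, which is described further on among the genes most like BCAT1. The other genes described there, FHL1, MTA1, SUGP2 and EEF2, were not searched. The motif is in capitals in the 30 bases printed for each site, which are written along the gene's strand. The first, at chr12:24949131-24949160, has its motif starting 48 bases before an annotated start of BCAT1, and the second, at chr12:24949070-24949099, has its motif just downstream of that start. They are followed by the MCCC1 site at chr3:183099646-183099675 (minus strand), the MCCC2 site at chr5:71587265-71587294 (plus strand), and for comparison the ASNS site at chr7:97872458-97872487 (minus strand).
BCAT1 TGATGNAA: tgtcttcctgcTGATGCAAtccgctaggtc
BCAT1 CACGTG: aatccagcccgcCACGTGtactcgccgccg
MCCC1 CACGTG: cacccccacgagCACGTGgccagactgccc
MCCC2 CACGTG: ggcgcgcttaggCACGTGtgtggacaggcc
ASNS TGATGNAA: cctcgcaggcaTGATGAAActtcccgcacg

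BCAT1 was the member whose level varied most among the libraries. In WT it stood at 3.73 CPM untreated (95% Wilson interval 3.19 to 4.37) and 8.25 CPM transduced (7.41 to 9.18). The E292V libraries were at 17.9 CPM (16.6 to 19.2) and 27.8 CPM (26.3 to 29.3), and the E690K libraries at 3.99 and 3.94 CPM. E292V was thus above every other library, and E690K lay inside the range of the WT pair. The L101P libraries were at 1.75 CPM untreated (1.33 to 2.29) and 0.599 CPM transduced (0.417 to 0.860). The libraries labelled KO were at 0.827 CPM untreated (0.583 to 1.17) and 0.394 CPM transduced (0.243 to 0.640). The last value rests on 32 counts and the highest on 2637, and the highest was 70.6 times the lowest. These intervals cover counting error only, since each rests on the counts of 1 library. The reads carry no molecular identifiers, so amplified copies could make the intervals too narrow. In bulk RNA, fewer cells with the transcript and less transcript per cell cannot be told apart.

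**Figure D1:**
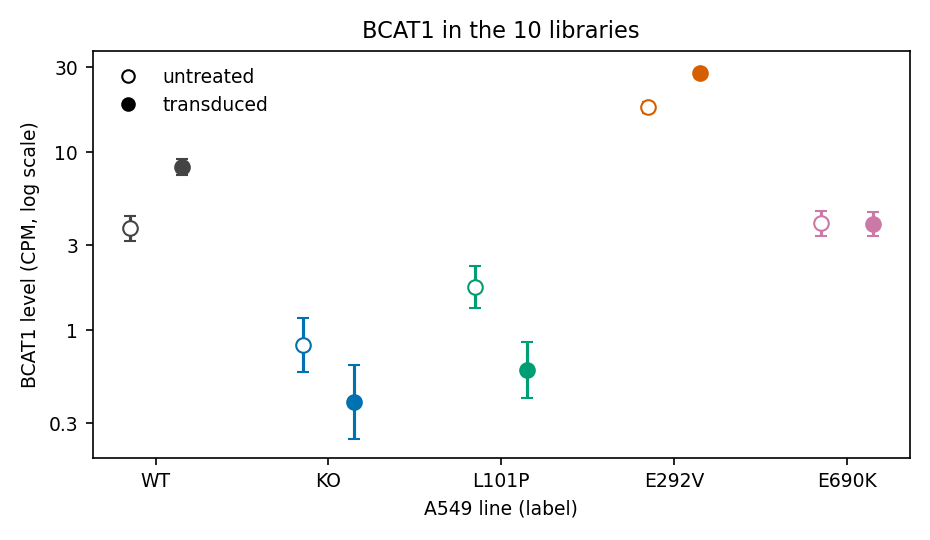
BCAT1 level in CPM on a log axis for each of the 5 lines, with open circles for untreated and filled circles for transduced libraries and bars for 95% Wilson intervals of counting error. The E292V libraries at 17.9 and 27.8 CPM lie above all others, and the L101P libraries and those labelled KO lie below WT and E690K.

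Ordered by the mean of the 2 libraries, BCAT1 stood at 22.8 CPM in E292V, 5.99 CPM in WT, 3.97 CPM in E690K, 1.17 CPM in L101P and 0.610 CPM in the line labelled KO. E292V and its neighbour WT did not overlap, and the fitted difference of 1.93 (log2) is given without a test because it chose the gene. WT and E690K overlapped, with a fitted log2 difference of -0.53 (SE 0.42, edgeR adjusted p = 0.558). The E690K pair lay above the L101P pair, yet the difference of -1.83 for L101P against E690K (SE 0.47) did not pass at edgeR adjusted p = 0.119. Its unadjusted p was 0.00202, and it passed in 4 of 17 alternative settings. The values of L101P and of the line labelled KO overlapped, with a log2 difference of -0.90 (SE 0.54, edgeR adjusted p = 0.948).

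Against WT, BCAT1 was lower in the line labelled KO and in L101P. The fits used all 10 libraries with terms for line and vector, tested 17978 genes and took an adjusted p under 0.05 as a call. The error in them measures how far libraries depart from additive effects of line and vector. In the line labelled KO the log2 difference was -3.26 (SE 0.50, edgeR adjusted p = 0.00695), or 9.56-fold lower. BCAT1 was the 1 member of 9 called there, and it was lower, while 0.990% of all genes tested were called lower, 0.807% higher and 1.80% in either direction. In L101P the log2 difference was -2.36 (SE 0.47, edgeR adjusted p = 0.0175), or 5.14-fold lower. Again 1 of 9 members was called, against 1.61% of all genes called lower, 2.33% higher and 3.94% in either direction. In E690K 0 of 9 members were called, against 2.33% of all genes called lower, 3.05% higher and 5.38% in either direction. These 3 comparisons share the WT libraries with each other and with the contrast that chose BCAT1.

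Within the untreated libraries alone BCAT1 was 4.52-fold lower in the library labelled KO than in WT and 2.13-fold lower in L101P. Within the transduced libraries the same ratios were 20.9 and 13.8. Both lines were below WT in both states, and for L101P the gap was larger in the transduced state. For KO the sizes by state depend on the labels that ABCA3 and EGFP go against: with the 2 labels exchanged, BCAT1 was 9.48-fold lower than WT untreated and 9.97-fold lower transduced. Without the library labelled KO transduced, the log2 difference of KO from WT was -2.68 and did not pass (edgeR adjusted p = 0.145). Without the WT transduced library, that of L101P was -1.58 and did not pass (edgeR adjusted p = 0.112), and without both E690K libraries its adjusted p was 0.0566. Exchanging the KO labels cannot move the KO difference by much, because the fit averages both libraries of the line, and gave an edgeR adjusted p of 0.0129.

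Comparisons among the line labelled KO, L101P and E690K use no WT or E292V library as a group. BCAT1 was 6.61-fold lower in the line labelled KO than in E690K, a log2 difference of -2.73 (SE 0.50, edgeR adjusted p = 0.0179). Here 1 of 9 members was called, against 0.946% of all genes called lower and 1.64% in either direction. The 4 libraries did not overlap, at 0.394 and 0.827 CPM against 3.94 and 3.99 CPM. That call was lost without any 1 of the 4 libraries, with edgeR adjusted p of 0.0545 and 0.206 without the untreated and transduced libraries labelled KO, and 0.181 and 0.120 without those of E690K. Its log2 difference in these settings lay between -3.46 and -2.18. Between the line labelled KO and L101P, and between L101P and E690K, 0 of 9 members were called, against 0.139% and 0.690% of all genes.

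**Figure D2:**
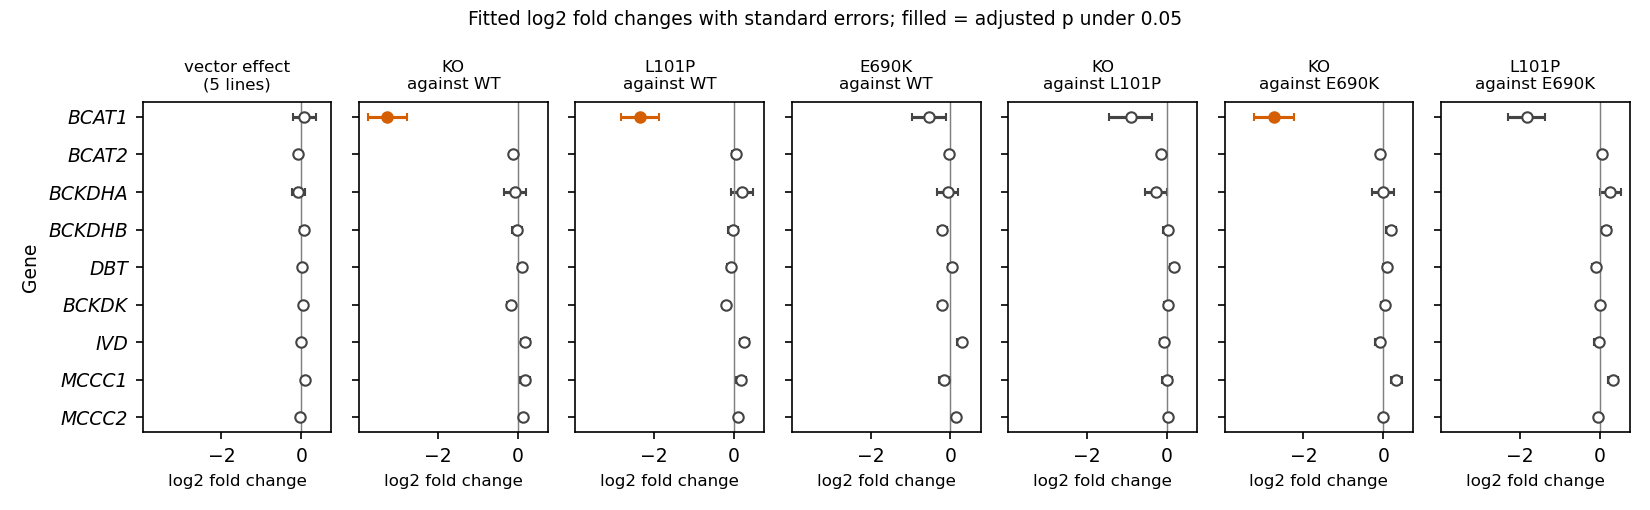
Fitted log2 fold changes of the 9 genes in the 7 tested comparisons, with bars for standard errors and filled points for an edgeR adjusted p under 0.05. BCAT1 is filled in KO against WT, L101P against WT and KO against E690K, and the 8 other genes lie within 0.33 of 0.

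Markers of other cell types were read beside BCAT1. Summed over 7 fibroblast markers, the level was 78.2 and 121 CPM in the E292V libraries, 29.0 and 47.8 CPM in WT, 24.9 and 34.7 CPM in E690K, 24.5 and 23.8 CPM in those labelled KO and 24.5 and 16.1 CPM in L101P. Most of this sum was COL1A1, a collagen chain, which ranged from 13.8 CPM in transduced L101P to 118 CPM in transduced E292V and was not called in any tested comparison. LUM, a matrix proteoglycan, made up most of the rest and did not follow BCAT1, at 2.64 and 2.07 CPM in E292V, 1.99 and 1.70 CPM in WT, and 3.94 CPM in both transduced E690K and the library labelled KO transduced. LUM was higher than in WT in E690K (log2 difference 1.02, edgeR adjusted p = 0.0371). COL1A2, COL3A1, PDGFRA, PDGFRB and DCN stayed under 1 CPM in every library, the highest of them being PDGFRA at 0.601 CPM. All 5 endothelial and 5 of 6 immune markers were also under 1 CPM in every library. The remaining immune marker, CD68, which many cell types express, made up nearly all of the immune sum of 21.0 to 43.9 CPM.

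BCAT1 did not change in the same direction with the vector in all lines. Its level was 2.21-fold higher in the transduced than in the untreated WT library and 1.56-fold higher in E292V. It was 2.92-fold lower in L101P and differed by 1.01-fold in E690K, where EGFP was at 16.3 CPM untreated and 18.0 CPM transduced. The counting intervals of the 2 libraries did not overlap in WT, E292V and L101P. In the pair labelled KO the level was 2.10-fold lower, with intervals that overlapped, and with the labels exchanged it would be 2.10-fold higher. The level was thus higher with the vector in 2 lines and lower in 3 as labelled, and higher in 3 and lower in 2 with the KO labels exchanged. Averaged in the fit with the labels as given, the vector effect was 0.08 (log2, SE 0.29, edgeR adjusted p = 0.988). With the KO labels exchanged BCAT1 was not called for the vector either. Its vector effect then lay between -0.27 and 0.55, the range over the 15 alternative settings. With this design 0 of 9 members and 0% of all 17978 genes were called for the vector, while 6.88% of genes had an unadjusted p under 0.05, and DESeq2 called 118 genes. The edgeR fit thus called neither ABCA3 nor EGFP, which the vector delivers. Yet EGFP was higher in the transduced library of every line except that labelled KO. A missing call for the vector therefore does not show that a gene was unchanged. Since each line has 1 library per state, a change within a line has no replicate error.

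**Figure D3:**
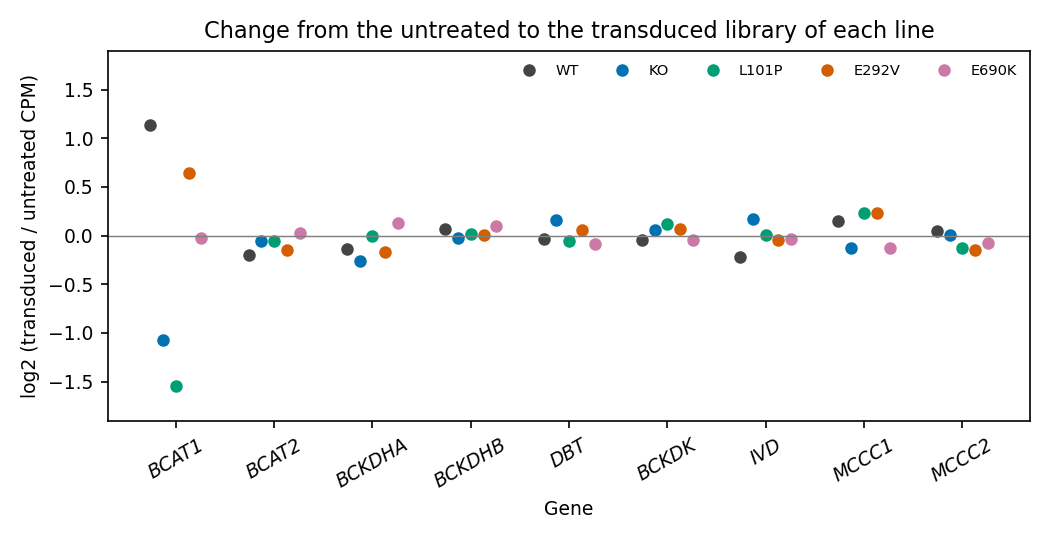
Log2 ratio of CPM between the transduced and the untreated library of a line, for the 9 genes. BCAT1 spreads from -1.55 in L101P to 1.14 in WT, and the 40 changes of the 8 other genes lie within 0.26 of 0.

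BCAT2, the mitochondrial transaminase, was far more even. It ranged from 80.5 CPM in the library labelled KO transduced to 96.6 CPM in untreated WT, with a median of 85.3 CPM. BCAT2 exceeded BCAT1 in every library, both in CPM and per kilobase of exon, a rough scale for comparing different genes. Per kilobase the ratio was 7.72 in transduced E292V and 528 in the library labelled KO transduced. Such ratios and shares depend on the length used. It was all annotated exon bases, 11775 for BCAT1 and 4553 for BCAT2, which need not match the expressed transcripts. BCAT1 made up 7.00% and 11.5% of the summed length-scaled level of the 2 transaminases in the E292V libraries and 1.47% and 3.66% in WT. It made up 1.80% and 1.74% in E690K, 0.729% and 0.261% in L101P, and 0.380% and 0.189% in those labelled KO. The share followed BCAT1, since BCAT2 differed by at most 1.20 times over the 10 libraries.

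The genes of the dehydrogenase complex differed little between the libraries. BCKDHB, which encodes the E1 beta subunit, ranged from 8.99 to 11.3 CPM, and DBT, which encodes the E2 acyltransferase core, from 18.1 to 22.4 CPM. Per kilobase the ratio of BCKDHB to DBT stayed between 1.23 and 1.63. BCKDHA, which encodes the E1 alpha subunit, was listed at 1.36 to 1.97 CPM from 117 to 190 counts. Its level is uncertain, because 63.8% of its exon bases are also exons of the readthrough gene AC011462.1 on the same strand, which was listed at 0 counts in the 10 libraries. A low length-scaled level of BCKDHA (median 0.646 CPM per kilobase against 2.63 for BCKDHB) therefore cannot be read as a low amount of this subunit. None of these 3 genes had an unadjusted p under 0.05 in the 7 tested comparisons. Among all genes an unadjusted p under 0.05 was found for 14.1% in KO, 18.3% in L101P and 19.3% in E690K against WT, and for 5.61% in KO against L101P, 12.9% in KO against E690K and 10.7% in L101P against E690K.

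BCKDK encodes the kinase that phosphorylates and inactivates the dehydrogenase. WT had 46.4 CPM untreated and 44.9 CPM transduced, and E292V had 47.7 and 50.1 CPM. It was at 37.2 and 40.5 CPM in L101P, 38.6 and 37.3 CPM in E690K, and 38.9 and 40.5 CPM in those labelled KO. The 4 libraries of WT and E292V thus lay above the other 6, although the differences from WT did not pass. For L101P the log2 difference was -0.19 (SE 0.09, unadjusted p = 0.0468, edgeR adjusted p = 0.264) and for E690K it was -0.22 (SE 0.09, unadjusted p = 0.0280, edgeR adjusted p = 0.188). PPM1K, the phosphatase that opposes BCKDK, was low, at 0.909 to 2.11 CPM. Per kilobase BCKDK exceeded it by 58.6 to 131 times.

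IVD, which oxidizes isovaleryl-CoA in leucine breakdown, had its lowest level in transduced WT. The WT libraries were at 27.1 and 23.2 CPM, those labelled KO at 26.6 and 29.8 CPM, L101P at 29.2 and 29.4 CPM, E292V at 28.1 and 27.4 CPM and E690K at 29.8 and 29.3 CPM. The log2 difference from WT was 0.26 in L101P (SE 0.11, unadjusted p = 0.0286, edgeR adjusted p = 0.206) and 0.28 in E690K (SE 0.11, unadjusted p = 0.0195, edgeR adjusted p = 0.155). Neither passed, although both lines lay above both WT libraries.

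MCCC1 encodes the biotin-carrying subunit of methylcrotonyl-CoA carboxylase and MCCC2 its partner. MCCC1 was at 15.7 and 14.4 CPM in E690K, 17.5 and 20.5 CPM in L101P and 20.1 and 18.3 CPM in those labelled KO, with WT at 16.4 and 18.2 CPM and E292V at 15.4 and 18.2 CPM. E690K lay below L101P and KO without overlap, and the log2 difference was 0.33 in both comparisons (SE 0.13) with edgeR adjusted p of 0.279 for KO against E690K and 0.352 for L101P against E690K. MCCC2 stayed between 104 and 121 CPM, the narrowest range of the 9 genes at 1.16 times. Per kilobase MCCC2 exceeded MCCC1 by 3.79 to 5.70 times.

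**Figure D4:**
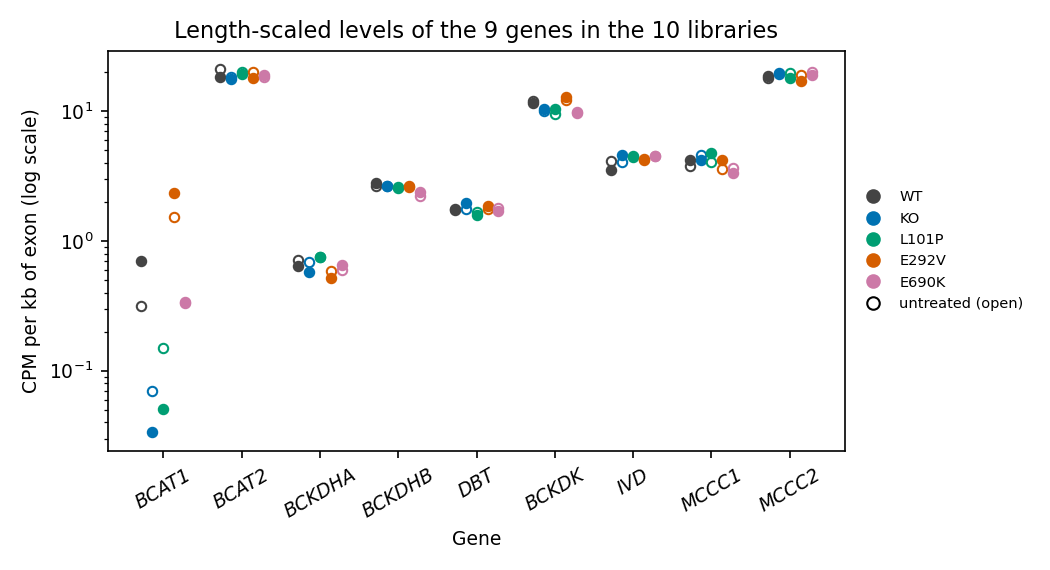
Length-scaled levels of the 9 genes on a log axis in CPM per kilobase of exon, with 1 point per library, coloured by line and open when untreated. BCAT1 spreads from 0.0335 to 2.36 while the 8 other genes form tight groups, with MCCC2 and BCAT2 the highest at medians of 19.0 and 18.7.

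Counted together, the 8 genes other than BCAT1 gave 0 calls in 56 tested differences, the largest being 0.33 on the log2 scale. They gave 0 calls in 936 values under alternative settings as well. The range of the 5 line means on the log2 scale ran from 0.15 for BCAT2 to 0.48 for BCKDHA, around the median of 0.27 over 11915 genes with an average log2 CPM of at least 1. BCKDHA, with an average of 0.77, is itself outside that set. For BCAT1 the range was 5.19, a description only, since its upper end is the E292V level that chose the gene.

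The remaining breakdown enzymes were examined as lists. Of 16 other enzymes of leucine, isoleucine and valine breakdown, such as DLD, AUH and ACADSB, 0 were called in each of the 7 tested comparisons. The same held for 7 genes of the propionate and methylmalonate steps and for 11 amino acid carriers, SLC7A5 and SLC3A2 among them. Since 0% to 5.38% of all genes were called in these comparisons, 0 calls in lists of this size is near the background. For KO against WT the median log2 differences of these lists were -0.01, 0.02 and -0.03, beside -0.01 for all genes. For L101P against WT they were -0.08, 0.06 and -0.14, beside -0.01 for all genes. For E690K against WT they were -0.11, -0.14 and -0.04, beside -0.02 for all genes. The carriers were not all even, although none was called. SLC6A15 was at 6.06 CPM untreated and 4.39 CPM transduced in E292V, and at 0 to 0.793 CPM in the other lines. SLC6A14 went the other way, at 0.101 and 0.0422 CPM in E292V and 0.707 to 2.95 CPM in the other lines. E292V against WT was not tested.

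A list of 14 genes of glutamate, transaminase and serine metabolism held calls against WT. In the line labelled KO 3 were lower and 0 higher, in L101P 3 were lower and 1 higher, and in E690K 2 were lower and 1 higher. Of all genes, 0.990% were called lower and 0.807% higher in KO, 1.61% and 2.33% in L101P, and 2.33% and 3.05% in E690K. The list was drawn up with earlier results of these libraries known. PHGDH, the first enzyme of serine synthesis from a glycolytic intermediate, was at 39.6 CPM in untreated WT, 35.9 CPM in transduced WT, and 55.7 and 50.9 CPM in E292V. It was at 23.6 and 18.0 CPM in L101P, 23.5 and 23.1 CPM in E690K and 18.4 and 20.3 CPM in those labelled KO, so the 3 lines lay below WT without overlap. The log2 differences of PHGDH from WT were -0.93 for KO, -0.83 for L101P and -0.65 for E690K, each with SE 0.11, at edgeR adjusted p of 0.00255, 0.00250 and 0.00593.

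ASNS, which makes asparagine using glutamine as amino donor, was also highest in E292V and below WT in the 3 other lines. It was at 51.5 and 59.1 CPM in WT, 71.6 and 80.2 CPM in E292V, 36.9 and 30.6 CPM in those labelled KO, 32.4 and 28.2 CPM in L101P and 37.1 and 34.9 CPM in E690K. Its log2 differences from WT were -0.69 for KO, -0.83 for L101P and -0.57 for E690K, each with SE 0.11, at edgeR adjusted p of 0.0105, 0.00250 and 0.0126. PSAT1, the transaminase of serine synthesis, which uses the glutamate that branched-chain transamination can supply, was at 186 CPM in both WT libraries and at 219 and 228 CPM in E292V. It was at 143 and 131 CPM in those labelled KO, 143 and 110 CPM in L101P and 149 and 139 CPM in E690K. The log2 differences from WT were -0.41 (edgeR adjusted p = 0.0401) in KO, -0.52 (0.00893) in L101P and -0.32 (0.0625, not called) in E690K. PSPH, the final enzyme of serine synthesis, was not called in any comparison, with log2 differences of -0.36, -0.42 and -0.42 in the same order of lines.

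OGDH, a subunit of the related 2-oxoglutarate dehydrogenase, was higher than in WT by 0.35 in L101P (log2, edgeR adjusted p = 0.0306) and by 0.43 in E690K (0.00828). Of 15 genes of leucine sensing upstream of mTORC1, 1 was called: RRAGD, a Rag GTPase, was lower in E690K, with a log2 difference of -0.86 (SE 0.20, edgeR adjusted p = 0.0247). With 5.38% of all genes called in that comparison, 1 of 15 is near the background. The levels of RRAGD were 3.52 and 3.23 CPM there against 6.37 and 6.34 CPM in WT. In the vector effect and in the 3 comparisons among the line labelled KO, L101P and E690K, 0 genes of these 5 lists were called. All 4 calls in E690K, on PHGDH, ASNS, OGDH and RRAGD, were lost without either E690K library (edgeR adjusted p 0.0578 to 0.227) and without at least 1 of the WT libraries (0.0545 to 0.168). The ASNS call in KO was lost without the library labelled KO transduced (0.261) or without transduced WT (0.116). The PSAT1 call in L101P was lost without transduced WT (0.0774). The PSAT1 call in KO and the OGDH call in L101P were lost when the KO labels were exchanged (0.0884 and 0.0588) and in most fits without 1 library (0.0761 to 0.486 for PSAT1 and 0.0531 to 0.161 for OGDH). PHGDH in KO and L101P and ASNS in L101P were called in every setting run.

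**Figure D5:**
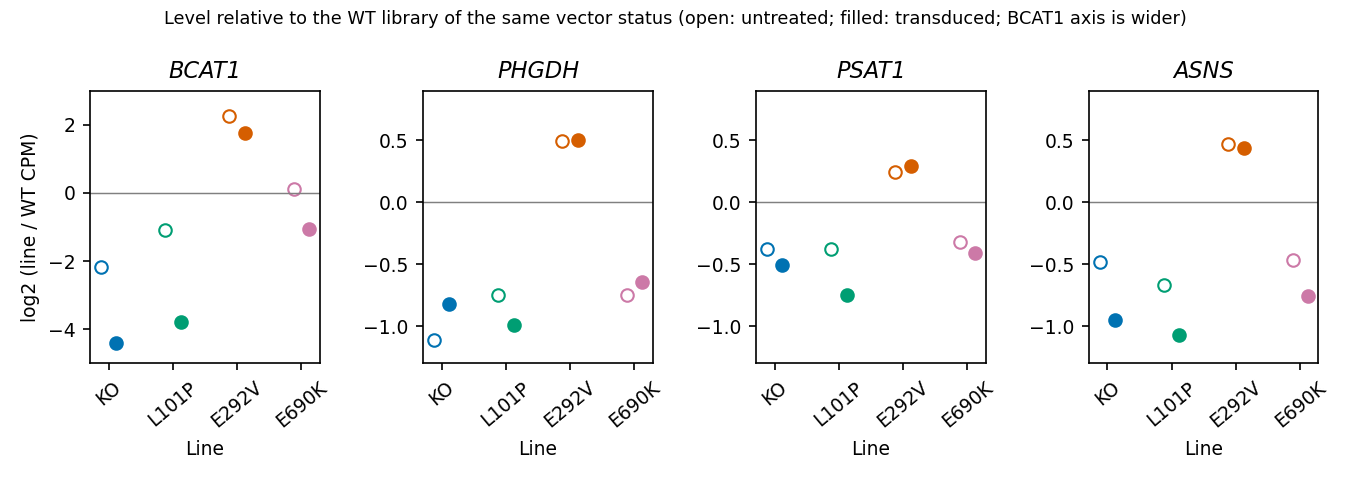
Level relative to the WT library of the same vector state, as log2 of the CPM ratio, for BCAT1 (wider axis), PHGDH, PSAT1 and ASNS, with open points for untreated and filled points for transduced libraries. For PHGDH, PSAT1 and ASNS the E292V points lie above 0 and those of the 3 other lines below it.

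The genes whose levels were most like that of BCAT1 over the 10 libraries were FHL1, MTA1, SUGP2, GARS and EEF2. Their Pearson correlations with BCAT1 on the log2 CPM scale were 0.979, 0.979, 0.975, 0.969 and 0.968, the highest of 11914 genes compared. These are descriptions over 5 pairs of libraries that share a line. FHL1, a LIM domain protein, ranged from 9.57 CPM in the library labelled KO transduced to 40.5 CPM in untreated E292V, a span of 4.24 times against 70.6 for BCAT1. MTA1, SUGP2, GARS and EEF2 spanned 1.38 to 1.43 times. Among the other members the correlation with BCAT1 ran from -0.60 for BCKDHA to 0.66 for BCKDK.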

How the data were processed

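The authors deposited unnormalized read counts for 33551 rows in 10 libraries. Per the submitters' processing notes, GRCh38, featureCounts, Subread, edgeR and limma were used, with no role or version given. Aligner settings, annotation and strand use are not given in the sources used here. Per the labels' protocols, RNA came from lifted cells and a total-RNA kit. Of the row names, 98.7% matched GENCODE release 29, the source of coordinates and exon lengths.

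The members and lists were chosen with earlier results of these data known. Counts were fitted with edgeR 4.0.16 in R 4.3.3 (glmQLFit, glmQLFTest; terms for line and vector; 4 residual degrees of freedom) after filterByExpr, which kept 17978 rows and 9 of 9 members, with TMM factors of 0.972 to 1.03 and Benjamini-Hochberg adjustment at 0.05. The standard error is the log2 fold change divided by the square root of F. Common dispersion was 0.0168 (biological coefficient of variation 12.9%). The scripts were tested on simulated data. CPM is the count scaled by the library total. Of the counts from 1 to 10, 81.4% were even, so 95% Wilson intervals used the count divided by 2 as read pairs. Libraries are paired by cell line: the nearest library was the same line for 8 of 10. Root mean square log2 CPM distances within a line (0.162 to 0.308) overlapped those between lines (0.240 to 0.577). No column was left unused and 0 duplicate libraries were found. Genes named were the 9 members, list genes with an adjusted p under 0.05 (at most 3 per list and comparison), and the 5 genes most correlated with BCAT1. COL1A1, LUM, CD68, PPM1K, PSPH, KRT8, EPCAM, SLC6A14, SLC6A15 and further list examples were named after their values were seen. Alternatives were DESeq2 1.42.0 size factors and Wald test, no count filter, exchanged KO labels, no line block and leaving out libraries. A lone library left in a line has no residual and is assumed to vary like the others.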

Additional observations from a re-analysis of the deposited data

Results flagged for a closer look

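The change of BCAT1 with the vector had opposite directions between lines: the log2 ratio of the transduced to the untreated library was 1.14 in WT and 0.64 in E292V, and -1.55 in L101P. The difference between the lines was not tested, since each has 1 library per state.

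In a set of 5 untreated libraries, 1 line stood apart for 2 of the 8 more even genes. BCKDHB in untreated E690K, at 3.17 on the log2 CPM scale, lay below the other lines. DBT in untreated L101P, at 4.23, also lay below the other lines. The counting intervals of both values overlapped those of every other untreated library. For BCKDHB the interval was 8.08 to 10.00 CPM in E690K and 9.85 to 11.8 CPM in WT. For DBT it was 17.3 to 20.4 CPM in L101P and 18.7 to 21.4 CPM in WT. Of 27 such sets examined, 2 were past the limit of 0.71 for the gap over the range, and chance gives about 1 in 20.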

How the results depend on the processing

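The 8 members other than BCAT1 gave 0 calls in 936 alternative values, and in 43 their sign changed, at sizes up to 0.13. BCAT1 was called in 16 of 17 settings for KO against WT (log2 -3.96 to -2.46), 15 of 17 for L101P against WT (-3.40 to -1.50), 13 of 17 for KO against E690K (-3.46 to -2.18), 4 of 17 for L101P against E690K and 1 of 17 for KO against L101P. The last was at -1.70 without transduced L101P (edgeR adjusted p = 0.0448) and turned to 0.20 without untreated L101P. L101P against E690K was called without the filter on low counts (-1.83, edgeR adjusted p = 5.4e-07), without untreated L101P (-2.92, 1.8e-05) and without untreated or transduced WT (both -1.87, 0.0348 and 0.0321). E690K against WT ran from -1.13 without untreated WT to 0.29 without transduced WT, uncalled throughout. The vector effect, called in 0 of 15 settings, turned to -0.12 with DESeq2, -0.15 and -0.17 without untreated or transduced E292V, and -0.26 and -0.27 without untreated or transduced WT. Its highest value on leaving out a library was 0.41, without L101P untreated or transduced, and with no replicate block by line it was 0.55.

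Counts of genes called depended on the setting, in the order vector, KO, L101P and E690K against WT, KO against L101P, KO against E690K and L101P against E690K. With no filter on low counts they were 237, 982, 1437, 1659, 186, 787 and 617, and by the DESeq2 Wald test 118, 740, 1227, 1463, 87, 624 and 408. With the KO labels exchanged, the 6 comparisons of lines gave 142, 367, 599, 11, 107 and 38, and the count for the vector in that setting is not given here. Leaving out libraries gave 0 to 206, 25 to 1226, 180 to 1967, 169 to 2147, 4 to 424, 21 to 1018 and 3 to 1351. Members called went from 0 to 1 in the comparisons with KO or L101P on leaving out libraries, and for L101P against E690K were 1 without the filter.

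No paired analysis beyond the line block was possible because each line and treatment has 1 library. A call describes these lines, not genotypes over independent clones. Depth limits BCAT1 most in the libraries labelled KO, where 32 and 62 counts leave wide intervals.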
